A study of Equus caballus with 4 samples.

Results

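Horse arrays carry many probes for transcripts that had no gene symbol when the array was designed. Among them, 67 probes had a clearly lower signal in the HMB-treated group than in the control and are described here. The array holds 43603 different non-control probes of 60 bases, and 18641 of these carry only an accession, a probe identifier or a provisional symbol that starts with LOC. The 67 probes were selected on the measured ratio itself. Their mean log2 ratio over 4 arrays was −1.3 or lower, which is an FC of 2.46 or more, and their control signal was well above background on all 4 arrays. The latter condition held for 9072 of the 18641 probes. A further 141 probes without symbol had a ratio past the threshold but a control signal that was not well above background on every array, and they are not members. Since the ratio chose the members, their ratios are given as a description and carry no test.

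The cells were equine satellite cells (ESC), the stem cells of muscle fibers, from m. semitendinosus of stallions aged 6 months. They had differentiated for 3 days. The HMB-treated group had 50 µM HMB, a metabolite of leucine, in the medium for 24 h, and 3 mM H2O2 was present for the last 1 h. The control had the same H2O2 and no HMB, so every sample was under oxidative stress. On each of the 4 arrays, HMB-treated RNA was labeled with Cy5 and control RNA with Cy3, which means that treatment and dye cannot be told apart. The methods chose the culture with the best viability and fusion, the control carries 1 replicate number in the labels of all arrays, and the methods describe 4 control samples. Whether the control RNA was shared is not settled, so the spread between arrays may be technical. A negative log2 ratio means lower expression with HMB.

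A probe without a symbol can stand for a transcript predicted from the genome, for an expressed sequence tag (EST, the read of 1 end of a cDNA clone) or for a contig assembled from RNA reads (TSA). Such a tag may be the end of a known gene whose annotation stopped short of it. Neighbouring probes on the same strand are therefore 1 guide to its identity. In this tissue, the transcripts that build myofibers, such as those of myosins, actins and their membrane anchors, are known to accumulate during differentiation.

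The 67 members had 41 different accessions or probe identifiers. When probes that shared an accession, a run of 20 bases or an overlapping position on 1 strand were joined, they formed 34 transcript groups, and 16 of these held 2 to 5 members. Ensembl transcripts gave 21 members, ESTs gave 21, TSA contigs gave 9, probes with no accession gave 9, and provisional LOC symbols gave 7. All 5 TSA contigs came from blood mononuclear cells, and the 9 ESTs came from placenta, articular cartilage, monocytes and blood leukocytes. Of the members, 60 lay on 17 numbered chromosomes of the EquCab1 build, 6 lay on the unplaced sequence Un and 1 had no position. Chromosome 9 held the most, with 12 members in 4 groups, followed by chromosome 16 with 9 members in 3 groups. For 13 of the 41 accessions the description gives a protein name, and the RefSeq table names 4 (*mtus1*, *hbegf*, *tuba1a* and *or5bj2*).

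Members with low ratios that are described singly or beside a named gene are shown first, 1 probe per transcript and 5′ to 3′, as the files give them. Others are shown where they are described. Capitals mark AATAAA, the usual signal for cleavage and polyadenylation at the end of an mRNA, where a probe holds it.
ENSECAT00000023034 (reelin, chr4:4128586-4128645): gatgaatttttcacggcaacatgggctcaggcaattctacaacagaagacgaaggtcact
DN510381 (chr12:10162807-10162866): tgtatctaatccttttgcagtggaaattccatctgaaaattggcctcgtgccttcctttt
ENSECAT00000020492 (tubulointerstitial nephritis antigen, chr20:45280616-45280675): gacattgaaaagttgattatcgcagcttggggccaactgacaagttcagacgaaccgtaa
JL638219 (chr5:51974922-51974981): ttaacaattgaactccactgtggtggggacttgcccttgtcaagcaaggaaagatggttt
ENSECAT00000013965 (UBA-like domain containing 1, chr11:4575474-4575533): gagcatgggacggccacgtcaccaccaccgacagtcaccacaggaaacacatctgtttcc
CX600715 (chr27:20106349-20106405): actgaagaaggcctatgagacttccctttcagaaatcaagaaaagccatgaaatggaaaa
JL628163 (chr22:18328923-18328982): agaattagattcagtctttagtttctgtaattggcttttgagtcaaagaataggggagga
JL619493 (chr19:41441304-41441363): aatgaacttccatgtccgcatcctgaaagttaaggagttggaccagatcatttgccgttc

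The 4 groups whose probes hold AATAAA are represented by the next probes, the last of which belongs to alpha tubulin 1a.
JL616515 (chr18:26888409-26888427): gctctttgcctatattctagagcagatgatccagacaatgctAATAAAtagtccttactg
DN509596 (chr2:34441335-34441394): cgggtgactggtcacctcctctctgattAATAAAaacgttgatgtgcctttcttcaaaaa
DN508003 (chr9:7553487-7553546): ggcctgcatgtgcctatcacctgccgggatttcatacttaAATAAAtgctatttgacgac
ENSECAT00000014577 (chr6:67040172-67040231): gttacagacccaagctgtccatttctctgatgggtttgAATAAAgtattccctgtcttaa

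The motif AATAAA was present in 7 of the 67 members (10.4%), against 17.0% of the 9338 tested probes without symbol and 11.5% of all tested probes. These 7 members lay in 4 groups, and with 1 member per group the share was 8.82%. On the other strand, read as TTTATT, the motif was present in 1 member (1.49%), against 4.48% and 4.12%, respectively. The members' median GC content was 41.7%, and it was 45.0% with 1 member per group, against 41.7% for all tested probes.

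The log2 ratios of the members ranged from −2.82 to −1.3, with a median of −1.56, whereas the median was −0.04 over the tested probes without symbol and −0.07 over all 24669 tested probes. The medians of the members on the single arrays were −1.67, −1.73, −1.49 and −1.61 on replicates 1 to 4. Of the 67 members, 66 were lower with HMB on 4 of 4 arrays, and 35 were at or past the threshold on every array. In the limma fit over the whole table, 67 of 67 members were called lower (adjusted p up to 0.05, FC of at least 1.3), but the rule used the same ratios and 16.4% of all tested probes were called lower. When normexp replaced the subtraction of background, 1 of the 67 members was still at or past the threshold, and when no background was removed, 10 were. The direction was kept by all 67 under both settings.

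The members differed in how well the signal of HMB-treated cells was measured. The Cy5 signal, that of HMB-treated cells, was well above background on 4 of 4 arrays for 47 members, on 1 to 3 arrays for 7 and on no array for 13. This share was 70.1% for the members and 94.8% for all tested probes without symbol. For the 47 members with a measured Cy5 signal, the median ratio was −1.50 as deposited and −0.99 with normexp, and 47 of 47 were called lower with normexp. For the other 20, the median was −1.68 as deposited and −0.28 with normexp, and 5 of 20 were called. The 13 members that were not well above background in Cy5 have only a bound. It is the control signal over the Cy5 signal, or over the lowest Cy5 signal detected on the array where that was higher. By this bound, the 13 members were at least 1.25-fold to 2.18-fold lower. Several of the lowest ratios are therefore of members that have only a bound.

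At the threshold, the members just inside were ENSECAT00000007452 (oxysterol binding protein-like 5), with a mean of −1.32, and A_69_P107044 and A_69_P122046, each with −1.3. Just outside, ENSECAT00000023688, a further probe of ENSECAT00000021432, and ENSECAT00000017968 each had −1.29. The 4 arrays gave −1.44, −1.28, −1.16 and −1.28 for the first of these, so the members pass into the remaining probes without a gap.

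Among the members with a protein name, ENSECAT00000011435 had the lowest ratio. Its description is leucine-rich repeats and transmembrane domains 1, a membrane protein. A pair of probes represents it, and the bases they share are in capitals.
A_69_P055531 (chr16:33114163-33114222): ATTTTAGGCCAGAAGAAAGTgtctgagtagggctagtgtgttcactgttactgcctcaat
A_69_P055532 (chr16:33114123-33114182): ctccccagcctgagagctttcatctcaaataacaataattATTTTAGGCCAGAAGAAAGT

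The former gave log2 ratios of −2.60, −2.74, −3.38 and −2.54 on replicates 1 to 4, the latter −1.35, −2.19, −1.3 and −2.08. Their mean Cy3 signals were 48.1 and 48.9, while their mean Cy5 signals were 6.81 and 15.6. The Cy5 signal of the former was not well above background on any array, and its bound was at least 1.97-fold lower. Thus, 2 probes of 1 transcript with nearly equal control signals differed by 1.08 on the log2 scale, and their Cy5 signals, near the background, were the ones that differed.

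Other named members in this dim class were reelin and tubulointerstitial nephritis antigen. Reelin, a secreted matrix glycoprotein known for guiding neurons, gave −2.16, −1.91, −2.23 and −2.42, with mean signals of 45.8 in Cy3 and 10.0 in Cy5. Its bound was at least 1.89-fold. Tubulointerstitial nephritis antigen, a basement membrane protein, gave −2.95, −2.66, −1.21 and −1.66, and replicates 1 and 2 were the lower. UBA-like domain containing 1 gave −1.91, −1.49, −2.23 and −2.18, with a bound of at least 1.31-fold. For oxysterol binding protein-like 5, a lipid carrier, the arrays gave −0.79, −0.91, −1.42 and −2.15. Each of these transcripts was represented by 1 member.

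LOC100629956 is named *hbegf* in the RefSeq table, the gene of heparin-binding EGF-like growth factor, a membrane-anchored ligand of the EGF receptor. Its 4 members, which begin at adjacent bases (chr14:35749048-35749110), had mean ratios of −1.74, −1.64, −1.56 and −1.46. The first gave −1.80, −1.48, −1.60 and −2.08, and the last gave −1.26, −0.79, −2.27 and −1.51, so the arrays were ordered differently by probes that share 57 bases. Mean Cy3 signals were between 51.7 and 71.9, and Cy5 was well above background on at most 1 array. Another probe of the accession was not tested, with a ratio of −1.08. With normexp, 1 of the 4 members was called lower.

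The brightest members were those of alpha tubulin 1a, a subunit of microtubules. The file names it LOC100051840 (ENSECAT00000014577), and RefSeq gives *tuba1a*. Its 2 members gave −1.3, −1.41, −1.27 and −1.42, and −1.3, −1.38, −1.27 and −1.43 on the 4 arrays. Mean Cy3 signals were 122721 and 145088, against 48314 and 57246 in Cy5. The SD between arrays was 0.08 and 0.07 (n = 4). A further probe of the accession, which the rule did not choose, was called lower with −1.20 (SD 0.08, limma adjusted p = 4.22e-05). Probes of other alpha tubulins gave other ratios. The 6 tested probes of *tuba1c* had ratios between −0.14 and 0.05 and were not called, and the probe of *tuba4a* had −0.67. The longest run of bases that the *tuba1a* members share with a probe of another alpha tubulin was 7, so the probes are distinct in sequence. The annotation is less distinct, since the *tuba1c* probe with −0.14 lists an accession in common with *tuba1a*. With normexp, the 2 members had ratios of −1.20 and −1.16.

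Several named members are known muscle or cell surface genes. Integrin alpha 7 (ENSECAT00000012376, chrUn:195010919-195010978), the laminin receptor chain that anchors myofibers, gave −1.37, −1.32, −0.99 and −1.69. Its mean signal was 3039 in the control and 1224 with HMB. Myosin heavy chain 7B (ENSECAT00000018068, chr22:25855913-25856467), a motor protein of slow and cardiac type fibers, gave −1.08, −1.80, −0.91 and −1.61. Layilin (ENSECAT00000016933, chr7:16800336-16800395), a hyaluronan receptor of the cell surface, gave −1.48, −1.46, −1.41 and −1.48, with an SD of 0.03. These arrays lay closer to each other than those of any other member. Replicate 3 was the highest array for all 3 transcripts. With normexp, the ratios were −1.17 for integrin alpha 7, −0.53 for myosin heavy chain 7B and −1.21 for layilin.

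SH3 domain binding glutamic acid-rich protein, a small protein of heart and skeletal muscle, was met by a member with its name and by 2 probes without any description. The run shared by all 3 is in capitals.
ENSECAT00000011051 (chr26:6399197-6399256): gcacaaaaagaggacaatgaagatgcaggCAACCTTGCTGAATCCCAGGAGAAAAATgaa
A_69_P123923 (chr26:6399200-6399247): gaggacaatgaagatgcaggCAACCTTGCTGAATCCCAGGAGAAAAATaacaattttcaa
A_69_P123922 (no position): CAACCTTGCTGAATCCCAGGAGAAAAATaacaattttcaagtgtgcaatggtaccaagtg

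The sequences part after the 28 shared bases, where the probes without description go on alike. The named probe gave −1.43, −1.87, −1.22 and −1.33, and A_69_P123923 gave −1.44, −1.73, −1.18 and −1.18. These were alike on every array, and their mean Cy3 signals were 413 and 436. A_69_P123922, which reaches furthest beyond the shared run, gave −2.27, −1.86, −1.39 and −1.71. Its Cy3 signal was only 31.5, and its bound was at least 1.29-fold. Another probe without description, A_69_P123921, shares 20 or more bases with A_69_P123922 and was not lower. It gave 0.12, 0.02, 0.17 and 0.11, with a mean Cy3 signal of 30.7, and was not tested.

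Tumor protein D52, a protein of vesicle trafficking, was the description of 1 member, and another member lay some distance from it on chromosome 9. The latter, DN508003, has no name and is set beside it by position alone. It lay 1735 bases from a *tpd52* probe on the same strand. The one named in its description (ENSECAT00000014729, chr9:7537476-7537535) gave −1.54, −1.43, −1.52 and −1.27, and the placenta EST DN508003 gave −1.29, −1.63, −1.51 and −1.33. Between them lay the 3 tested probes with the symbol *tpd52*, all called lower with ratios from −1.26 to −1.25. The 5 probes thus had ratios within 0.2 of each other. AKNA domain containing 1 (ENSECAT00000021432) gave −1.23, −1.16, −1.63 and −1.60. Its second probe lay just outside the threshold. An uncharacterized protein matched *or5bj2*, an olfactory receptor (ENSECAT00000007702), in the RefSeq table and gave −1.37, −2.13, −0.98 and −1.29, with a bound of at least 1.43-fold. A probe that shares 20 or more bases with it, named LOC100067804, had a ratio of −0.78. Whether these probes measure separate transcripts was not tested. XM_003365876, described as a homolog of a human open reading frame, was the 1 member that was not lower on every array, with 0.21, −1.98, −2.37 and −1.40. Its 2 other probes were not well above background in either channel.

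The question that the position can answer is whether named genes beside the members were lower too. For each member the nearest tested probe with a gene symbol on its chromosome was taken, up to 50 kb between probe centres, and each symbol was counted once. Such a probe was found for 30 members in 18 groups and gave 17 genes, of which 11 were called lower. In the whole table, 17.1% of the 15331 tested probes with a symbol were called lower. The median ratio of these 17 neighbours was −0.67. The count of 11 became 5 with normexp, 7 without background correction and 7 when both channels had to be well above background, where 15 genes remained. On the unplaced sequence, where distances may run across separate pieces, lay 3 of the 17 genes.

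These genes were then split by distance and strand. Over 10 kb to 50 kb, 8 genes were found and 4 were called lower, with a median of −0.32. The called genes were *tpd52* on the strand of the member, and *prnd*, *zc3h8* and *bloc1s1* on the opposite strand. There, *tpd52* was counted at both distances. On the strand of the member, *sphk1* (0.19) and *utp14a* (−0.15) were not called. Within 10 kb, 10 genes were found. Of these, 8 lay on the strand of the member and 8 of 8 were called lower, with a median of −1.34 and limma adjusted p between 9.80e-05 and 0.0016. The other 2, *trpc4ap* and *stxbp3*, lay on the opposite strand and had ratios of 0.13 and −0.10 that were not called. In all 8 same-strand cases, which hold 18 members, the member lay on the 3′ side of the named probe. The same holds for most probes without symbol, since 88.6% of the 2323 other probes with a tested named probe on the same strand within 10 kb lay on its 3′ side. Where such a probe without symbol was not itself called lower, 6.46% of 852 named neighbours were called lower, and where it was, 50.5% of 182 were. With normexp, 5 of the 8 genes were called (not *fam107a*, *mcoln2* and *cd200*), without background correction 6 were, and with both channels well above background 4 were, since the probes of *tcn1*, *fam107a*, *mcoln2* and *cd200* did not pass that filter. The split by strand was made after the values were seen.

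The pair at the shortest distance was DN510381 and *tcn1*, the gene of transcobalamin 1, a vitamin B12 binding protein. Their probe centres lay 163 bases apart, and a second *tcn1* probe lists the EST among its accessions. The member gave −2.42, −2.79, −1.66 and −1.77. It was well above background in Cy5 on 1 array, and its ratio was −0.68 with normexp. The nearer *tcn1* probe gave −1.05, −2.56, −1.70 and −1.55 (SD 0.63) and the second probe had a mean of −2.50 (SD 0.73, limma adjusted p = 6.26e-04). Both *tcn1* probes were well above background in Cy5 on only 2 arrays. A second probe of the EST, not a member, was well above background in Cy5 on 4 of 4 arrays. It was called lower with −1.20. Replicate 2 was the lowest array for all 4 of these probes.

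CX600715 and *mtus1*, the gene of a microtubule-associated protein, lay within 1 kb of each other on chromosome 27, and 1 of the mRNA accessions listed for the EST is *mtus1* in the RefSeq table. The 4 members had ratios of −1.85, −1.84, −1.70 and −1.65. The lowest gave −1.97, −2.14, −1.82 and −1.47, and the nearest *mtus1* probe gave −1.67, −2.06, −1.42 and −1.15. Both had replicate 2 lowest and replicate 4 highest. The second *mtus1* probe had a ratio of −1.79 (SD 0.21, limma adjusted p = 3.86e-05).

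CX603734 and *fam107a*, the gene of an actin-associated stress protein, were separated by 1127 bases on chromosome 16. All 5 members were near −2.0, with means from −2.11 to −2.0 and Cy3 signals between 443 and 547. Their 4 arrays were −2.0, −2.01, −2.19 and −2.22 for the lowest member. The nearest *fam107a* probe gave −1.21, −1.22, −0.92 and −1.51, and all 5 probes of the gene were called lower, from −1.36 to −1.20. None of these 5 probes was well above background in Cy5 on any array, and the bound of the nearest was at least 1.17-fold lower. On the other side, at 44882 bases and on the opposite strand, *kctd6* was called higher with 0.63.

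JL638219 lay 1574 bases from *mcoln2*, the gene of a cation channel of endosomes and lysosomes. It gave −2.26, −1.84, −2.13 and −2.16, with 355 in Cy3 and 83.2 in Cy5. The nearest *mcoln2* probe gave −1.57, −1.45, −1.67 and −0.99. It was not well above background in Cy5 on any array, and its bound was at least 1.43-fold lower. The second *mcoln2* probe had a ratio of −0.17. That probe was not well above background in Cy3 on any array and was not tested.

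JL628163 and JL621348 lay near the prion genes on chromosome 22, the former between *prnd* and *prnp* and the latter beyond *prnd*. JL628163 lay 1392 bases from *prnp*, which encodes the cell surface prion protein. Its 2 members gave −1.68, −1.95, −1.49 and −1.62, and −1.78, −1.94, −1.38 and −1.60. The *prnp* probe gave −1.18, −1.35, −0.87 and −1.04, in the same order of arrays, with replicate 2 lowest and replicate 3 highest. The neighbouring gene *prnd*, a paralog of *prnp*, was also called lower with −0.75 (SD 0.21). JL621348 gave −1.21, −1.12, −1.44 and −1.79. It lay 5290 bases from *rassf2*, a tumor suppressor gene, on the same strand. The *rassf2* probe was not well above background and was not tested. Replicate 2 was the highest array for JL621348 and the lowest for JL628163, so these contigs did not follow each other across arrays.

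On chromosome 19, 3 members in 2 accessions (JL619493 and the monocyte EST BI961135) lay 5432 to 5480 bases from *cd200*, the gene of a membrane glycoprotein that inhibits myeloid cells. The lowest member gave −1.59, −1.33, −1.85 and −1.82. The nearest *cd200* probe gave −1.42, −1.39, −1.73 and −1.93, and both probes of the gene were called lower (−1.62 and −1.48). Replicates 3 and 4 were lower than replicates 1 and 2 for the member and for the gene. The nearest probe was not well above background in Cy5 on any array, with a bound of at least 2.22-fold, and the second was on 1 array.

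CD470074, an EST of stimulated leukocytes, gave −1.48, −1.46, −1.42 and −1.60 and lay 1683 bases from *tuba4a*. The *tuba4a* probe was called lower, but with a smaller change (−0.44, −0.62, −0.80 and −0.84). On the opposite strand, at 2477 bases, *stk16*, a kinase gene, had 0.11 ± 0.42 (SD, n = 4) and was not called. In this gene-dense stretch 7 of the tested genes within 50 kb were compared, and besides *tuba4a* only *abcb6* was called lower (−0.50).

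Over the 8 genes, the array with the lowest ratio was the same for the members and for the neighbour in 6, and the highest array was the same in 4. Among the 4 genes whose Cy5 signal was well above background on 4 of 4 arrays, the lowest array was the same in 4 and the highest in 3. Each shared lowest array was replicate 2 or replicate 4. Over all 34 groups of members, replicate 2 was the lowest array in 11 and replicate 4 in 12, and replicate 3 was the highest in 13. How often unrelated probes share an array in this way was not tested, so these counts are a description.

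Within 10 kb and on the same strand, the nearest named probe was not tested for JL616515, the probes A_69_P105381 to A_69_P105385, JL621348 and DN507993. On the opposite strand, *mettl7b* near integrin alpha 7 was not tested either. JL616515 had 2 members that share 20 bases but are placed apart, the former by only a short stretch of its sequence.
A_69_P102121 (chr18:26888409-26888427): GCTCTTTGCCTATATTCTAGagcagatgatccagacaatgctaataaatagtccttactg
A_69_P102122 (chr18:26889996-26890055): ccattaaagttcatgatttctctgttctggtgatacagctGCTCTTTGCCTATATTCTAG

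They gave −1.80, −2.23, −1.93 and −1.83, and −1.86, −2.25, −1.80 and −1.70, with mean Cy3 signals of 181 and 306. The nearest symbol was *cytip*, the gene of a leukocyte adaptor protein, on the same strand, and its probe was not well above background. The nearest tested gene, *galnt5*, an enzyme of mucin-type glycosylation, was called lower with −1.64 (SD 0.47) at 62932 bases. This is past the limit of 50 kb. Its probe lay on the opposite strand and was not well above background in Cy5 on any array.

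The 5 probes without accession on chromosome 9 (A_69_P105381 to A_69_P105385, chr9:42450322-42450386) had means between −1.67 and −1.59. The probes were alike, but the arrays differed: A_69_P105383 gave −1.86, −2.08, −1.33 and −1.41 (SD 0.36), and the others had the same lowest array. The run they share is in capitals.
A_69_P105381: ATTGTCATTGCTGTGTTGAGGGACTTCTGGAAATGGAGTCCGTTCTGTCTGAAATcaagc

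The *ncald* probe, for a neuronal calcium sensor, lay 5715 bases away on the same strand, with −0.24 ± 0.45 (SD, n = 4), and was not well above background.

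The placenta EST DN507993 gave −2.91, −0.59, −1.09 and −1.89 on its lower member, so replicate 1 was far below replicate 2. Its SD of 1.01 was among the highest of the members, and Cy5 was well above background on no array. DN509596, also from placenta, had 4 members between −1.49 and −1.36, which overlap by nearly their whole length. The lowest of these gave −1.36, −0.68, −1.82 and −2.10, and replicate 2 was the highest for all 4. Its nearest named probe, *padi1*, lay 13511 bases away and was not tested. The cartilage EST CX603055 lay on chromosome 26 among the genes of interferon and interleukin receptors, on the strand opposite to each of them. Its 2 members had ratios of −1.77 and −1.48 and were not well above background in Cy5. Within 50 kb, *il10rb* was not called (0.25), *ifnar1* was called lower (−0.45) and *ifnar2* was called higher (0.60).

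ENSECAT00000022739, an uncharacterized transcript with no tested symbol within 50 kb, had 5 members, from −1.50 to −1.48, with Cy3 signals from 801 to 909. The lowest gave −1.74, −1.43, −1.34 and −1.51. ENSECAT00000002888, also with none within 50 kb, had 2 members that share 56 bases, yet their ratios were −2.29 and −1.56. Here the Cy5 signals of 10.9 and 19.2 were not well above background on any array.

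Members of 1 group could be compared only among those past the threshold, which limits how far they can differ. In the 10 groups of 2 or more members whose Cy5 signal was well above background on 4 of 4 arrays, the lowest and highest member differed by 0.00 to 0.20, with a median of 0.06. In the 6 groups with a dim Cy5 signal, they differed by 0.17 to 1.08, with a median of 0.35. Members of a group share bases and are not independent.

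Probes that the rule did not choose but that represent the same transcript were examined as well. There were 13 such probes, by accession or by the RefSeq name, and 9 of them were tested. All 9 were called lower, with ratios from −1.79 to −0.80, against the 16.4% of all tested probes called lower. They belonged to 7 accessions of members: *mtus1* (2 probes), CX603055 (2), DN507993, DN509596, DN510381, *tuba1a* and AKNA domain containing 1. The tested probes of CX603055 and DN507993 were well above background in Cy5 on at most 1 array. They entered the test through the control signal. The 4 companion probes that were not tested had ratios of −1.45, −1.08, 0.17 and 0.36. With normexp or without background correction, 6 of the 9 were called. These probes share bases or samples with the members, so they show agreement between probes and are not new replicates.

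Among genes with a symbol, 17.1% of the tested probes were called lower. Of 32 tested sarcomere genes, 27 were called lower, with a median of −1.02, and *myl1*, *tpm1*, *tpm2*, *tpm3* and *mybph* were not called. Each gene is given by its brightest tested probe, and other probes of it are not described here. The paper lists *tpm1* and *tpm3* as lower with HMB. Of 23 genes of excitation-contraction coupling and muscle metabolism, 21 were called lower and 1 (*eno3*) higher, with a median of −0.80. Of 18 genes of collagens and matrix, 1 (*sparc*) was called lower and 4 higher, with a median of 0.06. In these lists, both channels were well above background on 4 of 4 arrays for 29, 19 and 17 tested genes, respectively. The Cy5 signal fell short of this for *myh2*, *tcap*, *xirp2*, *cacng1*, *trdn*, *dmd* and *mb*, which were all called lower.

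Among markers of the labelled cell type, 7 of 8 myogenic genes were tested and 5 were called lower. Their summed signal was 166055 to 186895 in the control and 63223 to 100515 with HMB. *myog* (0.03) and *myod1* (0.32) were not called. Of 7 fibroblast markers, 6 were tested and 4 were called higher (*pdgfra*, *thy1*, *dcn* and *lum*). Their summed signals overlapped, with 413316 to 503650 in the control and 405633 to 633656 with HMB. No probe of 4 endothelial genes was well above background, and the same held for *itgam* among the leukocyte genes, while *cd68* was called higher (0.88) and *cd14* was not called. The adipocyte genes were not tested, and of the pericyte or smooth muscle genes *acta2* was tested and not called (−0.05). The part of these markers in the members' ratios was not tested, and fewer myogenic cells and less RNA per cell cannot be told apart.

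In the whole table, 4050 tested probes were called lower and 2996 higher, that is, 57.5% of the calls were lower. This share was 45.4% with limma's treat, 45.0% with normexp, 39.9% without background correction and 36.8% with median centring without lowess. On the 4 arrays, 57.6% to 60.6% of the spots were well above background in Cy3 and 55.2% to 61.8% in Cy5, and no spot was saturated.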

How the data were processed

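Gene expression was measured on 4 two-colour Agilent horse arrays, all on 1 slide. In the deposited scanner files, the intensity of each spot had been corrected for background and normalized by linear and lowess scaling within the array, and the log10 ratio of Cy5 over Cy3 was computed by the authors' Feature Extraction software. The authors' table, in the same log10 unit, was used as an alternative. Ratios were multiplied by 3.3219 to the log2 scale. Columns of other types in the deposited files (flags for spots above background, gene names, accessions, EquCab1 positions and probe sequences) were read as given. No per-array column was left unmapped. Positions are those of the files, and exons, introns and genomic DNA were not analysed here.

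Members were probes with a name equal to the accession or probe identifier, or starting with LOC. The probes named in the text were the 15 lowest members, the 15 lowest with a protein or gene name, the 15 lowest within 10 kb of a tested named probe, the 10 groups with the most members, and the 3 probes on each side of the threshold. The other 20 members fell outside this rule, and those described were chosen after their values were seen. The members, lists and tests were chosen with earlier results of these data known. Marked spots were left out of the fit. In R 4.3.3, limma 3.58.1 tested the log2 ratios of 24669 probes against 0 (at least 1 channel well above background on 4 of 4 arrays, ratio on 3 or more), with Benjamini-Hochberg adjustment. The fit was tested on simulated ratios with 50 probes changed at each size. It recovered 25 at 0.5, 45 at 1, 47 at 1.5 and 46 at 2, with 5 false calls. The simulated errors were independent between probes and arrays, so the false calls do not cover errors that the arrays share. Bounds used the processed signals after A-quantile normalization. A gene in a list was given by its brightest tested probe. RefSeq names came from the TB-T2T assembly table. The number of arrays limits the precision. Alternatives were other background corrections (normexp with an offset of 50, or none), median centring, scaling between arrays, a GC correction, other filters and tests (treat, the methods' t-test, trend with robust moderation), other distances and leaving out each replicate.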

Additional observations from a re-analysis of the deposited data

Results flagged for a closer look

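Among the 67 members, 2 had a replicate that stood apart from the other 3 by Dixon's test. For CX603055 (A_69_P110605), replicate 2 was the lowest at −1.88, while the other arrays lay between −1.39 and −1.3. This probe was not well above background in Cy5. For A_69_P107044, replicate 3 was the highest at −0.98, while the others lay between −1.43 and −1.38. A pair of overlapping probes outside the threshold, A_69_P107042 and A_69_P107043, were also highest on replicate 3, at −0.94 and −0.96. Chance alone puts about 1 in 20 groups of 4 past this value, and no cause was tested.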

How the results depend on the processing

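The members depended on the background correction. Of the 67 members, 1 met the fold threshold with normexp and 10 without background correction, and the members' median moved from −1.56 to −0.89 and −1.07, respectively. With median centring, 56 members met it, and that setting shifted the median of all tested probes by 0.14 on the log2 scale. With a replicate left out, 56 to 64 members met it, and the median lay between −1.58 and −1.51. No member changed sign under these settings, but lower calls, 57.5% of all calls, became the minority with treat, normexp, no background correction and median centring. The 11 nearest named genes called lower became 5 with normexp and 7 both without background correction and with both channels well above background. With a replicate left out they numbered 10 to 11. Of all tested probes, 4050 were called lower, against 1280 with treat, 1593 with normexp, 1770 without background correction and 3900 to 4096 with a replicate left out. The 9 companion probes stayed at 6 or more calls throughout, and at 9 with a replicate left out. With probes that share an accession or 20 bases counted too, a choice made after seeing the data, 13 of 14 were called. The causes were not tested. Signal over background limits the size given for 20 members. Each ratio already pairs an HMB-treated with a control sample on 1 array. No paired analysis was possible because the labels hold 1 group of ratios, so there was no further block to add.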
